A study of Mus musculus and Homo sapiens with 22 samples.

Results

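Kmt2a, Kmt2b, Kmt2c, Kmt2d, Setd1a, Setd1b, Nsd1, Setd2, Ash1l and Kmt2e are 10 of the 56196 mouse genes in the count files of this study, and all 10 were among the 15731 genes with enough counts to be tested. They were chosen by name as histone methyltransferases of the KMT2 and SET1 kind. The name fits 6 of them strictly, since Nsd1, Setd2 and Ash1l methylate another lysine of histone H3 and Kmt2e is generally regarded as having no methyltransferase activity of its own. For the human cells the genes of the same names were used.

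The study mapped N6-methyladenosine (m6A) in poly(A)+ RNA with miCLIP2, in which UV light joins an anti-m6A antibody to the RNA it binds and reverse transcription then stops at the joint. A machine learning classifier, m6Aboost, then kept those crosslink peaks that it scored as m6A. The mESC, the HEK293T cells and each heart input have 1 deposited list of single-nucleotide sites, pooled over replicates where there were several. A site count therefore has no replicate error, and the lists give no read depth for a site. RNA-seq was available for mouse embryonic stem cells (mESC) only.

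The mESC site list came from 3 replicates of wild-type (WT) cells, and the RNA-seq compared 3 libraries of WT cells with 3 libraries of Mettl3 knockout (KO) cells, which lack the main mRNA m6A methyltransferase. Both mESC genotypes were taken from an earlier publication and grown in serum with LIF. The study trained m6Aboost on miCLIP2 peaks that it compared between these WT and KO cells. The mESC list thus includes peaks used in training, whereas the heart and HEK293T data were new to the classifier. How far this shapes differences between the lists was not tested. The study calls its mESC replicates biological, but the labels do not say whether libraries of a genotype came from separate cultures, so p-values measure the spread between these libraries, which may be technical. Mouse heart RNA was purchased, with no strain or age given, and was profiled once at each of 4 inputs, 50, 100, 300 and 1000 ng. The HEK293T list, from 4 replicates, came from a human cell line of embryonic kidney origin.

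Methylation of lysine 4 on histone H3 (H3K4) marks promoters and enhancers of active genes. SETD1A, SETD1B and KMT2A to KMT2D are its main writers, and each works in a COMPASS complex around the shared subunits WDR5, RBBP5, ASH2L and DPY30. Methylation of lysine 36 (H3K36), written by NSD1, ASH1L and SETD2, marks gene bodies and broader active domains, with SETD2 placing the trimethyl form. On the RNA side, Mettl3 methylates adenosines in the DRACH motif (D for A, G or T, R for A or G, H for A, C or T), and m6A is known to collect in last exons and in long internal exons.

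Among the sites of the 10 genes, 24 were listed in mESC and in heart at the same position and also had a HEK293T site in a matching window of the same human gene. They are shown first because they are the positions at which all 3 sources carried a listed site. For each gene that had any, the one with the highest mESC score is printed with its human counterpart. The 21-nt windows were read 5′ to 3′ on the transcribed strand from GRCm38 and GRCh38, and capitals mark the 5 bases centred on the listed adenosine.

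Kmt2d exon 40, mouse, chr15:98843903-98843923, minus strand: aggtgaacGGACAggtggtac
KMT2D exon 40, human, chr12:49031483-49031503, minus strand: aggtgaatGGACAggtggtgc
Nsd1 exon 23, mouse, chr13:55313599-55313619, plus strand: gggcacacAAACTttggcaca
NSD1 exon 23, human, chr5:177295327-177295347, plus strand: gagcacacAGACAttggcaca
Kmt2b exon 28, mouse, chr7:30575305-30575325, minus strand: gctgacctGGACTttgcagcc
KMT2B exon 28, human, chr19:35732514-35732534, plus strand: gctgacctGGACTtcgcggcc
Setd1a exon 14, mouse, chr7:127795912-127795932, plus strand: ctccccctGGACCatgcgtct
SETD1A exon 14, human, chr16:30979414-30979434, plus strand: ctgcccctGGACCacgcatct
Setd2 exon 12, mouse, chr9:110573698-110573718, plus strand: tcaaactaAGACTgctgttcc
SETD2 exon 12, human, chr3:47084276-47084296, minus strand: tcagactaAGACTgctgtccc

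All of these lie in coding sequence, and the exon numbers are the same in both species. The mouse Setd1a position is also in an exon of a second annotated gene, Gm49388. The 2 windows of a pair differ at 2 bases in Kmt2d, Kmt2b and Setd2 and at 3 bases in Nsd1 and Setd1a. In Kmt2b, Kmt2d, Setd1a and Setd2 the 5 central bases are identical between the species, whereas in Nsd1 they differ and remain a DRACH motif in both. The Kmt2d site scored 0.902 in mESC and 0.870 in HEK293T on the m6Aboost scale, which runs from 0.5 for the weakest site kept to 1.

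A few further windows are printed because of what they share across lists. The Kmt2d site above and a second one in the same exon were the only sites of the 10 genes in the heart list from 50 ng, the lowest input, and both were in the mESC, heart 1000 ng and HEK293T lists as well. Next to the Nsd1 site above, another listed adenosine lay 12 bases downstream in both species. One Nsd1 site shared by all 3 sources was outside DRACH in mouse and in human. The Setd1b window is the only heart site of that gene with a human match.

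Kmt2d exon 40, second site, mouse, chr15:98843990-98844010, minus strand: aggggctaGGACCttgggacc
KMT2D exon 40, second site, human, chr12:49031570-49031590, minus strand: agggtctgGGACCttgggatc
Nsd1 exon 23, downstream neighbour, mouse, chr13:55313611-55313631, plus strand: tttggcacAAACTtgctggtc
NSD1 exon 23, downstream neighbour, human, chr5:177295339-177295359, plus strand: attggcacAGACTtgctggtc
Nsd1 exon 23, outside DRACH, mouse, chr13:55312252-55312272, plus strand: tctgtcttGTACTgaacatga
NSD1 exon 23, outside DRACH, human, chr5:177293965-177293985, plus strand: tctgtcttGTACTgagcatga
Setd1b exon 6, mouse heart, chr5:123148354-123148374, plus strand: gacagcctGGACTcccgcatt
SETD1B exon 6, human, chr12:121810434-121810454, plus strand: gacagcctGGACTcgcgcatc

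Across the whole coding and untranslated sequence, the 10 genes held 122 exonic sites in mESC, 234 in heart at 1000 ng and 94 in HEK293T. The full lists hold 25287, 44697 and 35867 exonic sites. The 2 mouse lists together gave 256 distinct positions in the 10 genes when the lower heart inputs were included. Site numbers were unequal among the genes. In mESC, Kmt2d with 39 and Nsd1 with 29 sites together outnumbered the other 8 genes, and Setd1b had none.

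Kmt2d encodes the main H3K4 monomethyltransferase of enhancers and was proposed for study as the gene with the most mESC sites, so its first place is a description. Tnrc6c followed with 34 sites, Mga with 32, and Nsd1, Plec and Rest with 29 each, whereas the median gene with any site had 3. Length enters that order. Per kb of merged exon, Kmt2d had 1.96 sites against a median of 0.606, which put it in place 648 of 6729 genes. The score enters as well, since only 12 of its 39 sites reached the median score of the mESC list, and counted by such sites Kmt2d was in place 11 and Nsd1, with 17, in place 2.

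In heart at 1000 ng Kmt2d held 57 sites, in place 3 behind Ttn with 195 and Ahnak with 84 and ahead of Plec with 51 and Macf1 with 48. In HEK293T KMT2D held 13 sites and was in place 381. NSD1 led the 10 genes there with 30 sites, in place 15, in a list that had SPEN with 60, PLEC with 45, MKI67 with 40 and SRRM2 with 36 near its top. The order of the 10 genes therefore was not the same in the 3 lists.

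To set genes of different length side by side, the number of sites in DRACH motifs was divided by all DRACH motifs of 1 coding transcript per gene. For Kmt2d the share was 10.9% of 338 motifs in mESC (95% Wilson interval 8.05 to 14.7), 16.0% in heart (12.5 to 20.3) and 4.06% of 320 motifs in HEK293T (2.39 to 6.83). For Nsd1, the H3K36 dimethyltransferase gene, the shares were 9.29%, 11.1% and 9.96%. The Nsd1 intervals overlapped among all 3 lists. Intervals here cover counting error only, and neighbouring sites in one transcript are not independent.

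Kmt2b, which trimethylates H3K4 at promoters that also carry repressive marks, had 13 sites in mESC, 11 in heart and 13 in HEK293T. Its share of DRACH motifs was 9.35%, 7.91% and 11.2%. Kmt2a, its closest relative and the MLL gene of leukaemia translocations, had 13 sites in mESC, 30 in heart and 2 in HEK293T, or 3.36%, 8.12% and 0.282% of its motifs. Kmt2b thus stayed within a narrow span where Kmt2a did not.

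Kmt2c, the partner in enhancer monomethylation to Kmt2d, had 2 sites among 368 motifs in mESC, 21 in heart and 2 in HEK293T. Its share of DRACH motifs was 0.543% in mESC and 5.16% in heart, where that of Kmt2d was 16.0%. The transcripts of Kmt2c and Kmt2d hold similar numbers of motifs, and their WT levels in mESC were 5.66 and 10.9 CPM per kb.

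Among the SET1 genes, Setd1a had 10 sites in mESC, 8 in heart and 18 in HEK293T, where 17.9% of its 95 motifs were sites (11.5 to 26.8), the highest share of any of the 10 genes in any list. All 10 mESC sites of Setd1a also lie in exons of Gm49388 and cannot be assigned to one of them. Setd1b had 0 sites in mESC, where a count of 0 among 171 motifs allows a share of up to 1.75%, then 17 sites in heart (9.94% of motifs) and 5 in HEK293T (3.62%).

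Of the H3K36 genes, Setd2 had 12, 21 and 9 sites in mESC, heart and HEK293T, and Ash1l had 1, 22 and 2. Kmt2e, a chromatin reader by its PHD finger, had 3 sites in mESC and 14 in heart. KMT2E had 0 in HEK293T, where 162 motifs allow up to 1.85%. In heart every one of the 10 genes had at least 8 sites, and its shares of motifs ran from 5.16% in Kmt2c to 16.0% in Kmt2d.

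Summed over the 10 genes, 4.69% of 2386 DRACH motifs were mESC sites, 9.39% were heart sites and 3.89% of 2290 human motifs were HEK293T sites. The same shares over all genes with at least 1 site were 4.47%, 5.83% and 5.55%. Against genes with a site, the 10 genes thus were close to the average in mESC, above it in heart and below it in HEK293T. In the latter 2 lists the counting intervals do not overlap. Heart expression was not measured, so a larger share of methylated transcripts and a higher transcript level cannot be told apart there. Nor can, in RNA of a whole organ, more cells of a type and more RNA per cell.

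**Figure D1:**
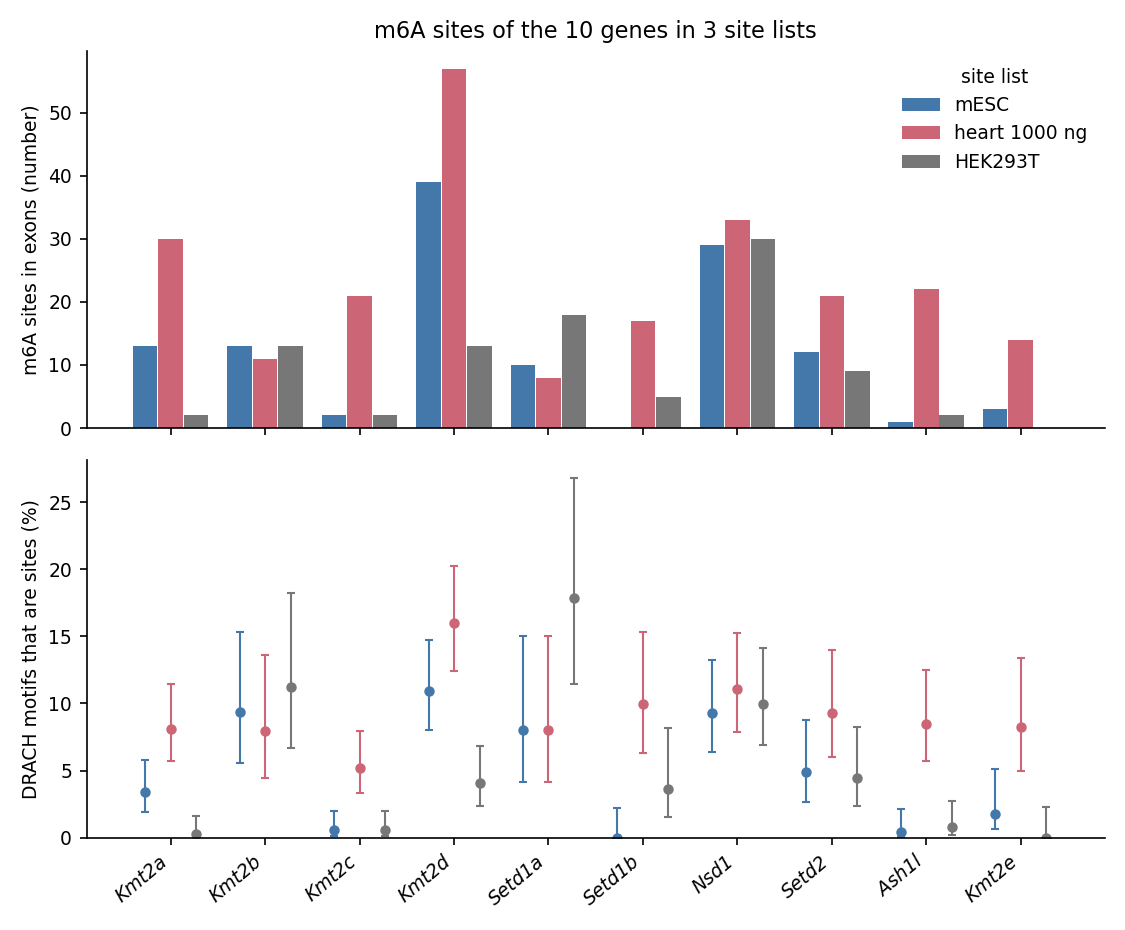
Number of exonic m6A sites (upper panel) and percent of the DRACH motifs of each gene that are sites, with 95% Wilson intervals (lower panel), for the 10 genes in the mESC, heart 1000 ng and HEK293T lists. Kmt2d has the tallest mESC bar with 39 sites and the tallest heart bar with 57, Nsd1 stays at 29 to 33 in all 3 lists, and Setd1b in mESC and KMT2E in HEK293T are at 0.

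The sites of the 10 genes were unevenly placed along their transcripts. In mESC 87 of 122, or 71.3% (62.7 to 78.6), lay in internal exons longer than 400 nt, against 19.3% of all sites in exons of a single gene. In heart the share was 77.3% against 19.8% and in HEK293T 66.0% against 16.1%. Last exons held 26.2% of the mESC sites of the 10 genes against 68.8% of all. Correspondingly, 86.1% of their mESC sites were in coding sequence against 51.7%, 13.9% were in 3′ UTRs and none was in a 5′ UTR. The region of the transcript was itself an input of m6Aboost, and how far it shapes such shares was not tested.

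Long internal exons make up from 7.75% of the chosen transcript in Kmt2e to 67.3% in Setd2. Kmt2d has 6 internal exons over 400 nt, which make up 52.5% of its 19823-nt transcript. Its exon 40 (2952 nt, GRCm38 chr15:98843595-98846546) held 13 mESC sites at 45 motifs and 16 heart sites. Exon 35 (1982 nt) held 10 sites at 34 motifs in mESC and 15 in heart. Exon 11 added 5, exon 49 added 4, and the last exon, 55, held 5 mESC sites, 4 of them in the 3′ UTR. In all, 34 of 39 mESC sites and 51 of 57 heart sites of Kmt2d were in long internal exons, and none was in a short internal exon.

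Nsd1 showed a second layout. Exon 5 (2560 nt) held 13 mESC sites and the 6207-nt last exon, 23, held 15, of which 4 were past the stop codon. In heart the same exons held 14 and 15 sites. In HEK293T exon 5 of NSD1 held 8 and exon 23 held 21. The last exon of Nsd1 thus carried its sites mainly in the coding part ahead of the stop codon, although most of that exon is 3′ UTR.

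The other genes followed the exon lengths in different degrees. Kmt2a had 4 mESC sites in exon 27 (4237 nt) and 9 in its last exon, where 8 sites were in the 3′ UTR. Kmt2b had 6 each in exons 3 and 28, and the same human exons held 6 and 7. Setd1a had 6 sites in exon 14 and 3 in exon 8. Setd2 had 4 sites in its 4286-nt exon 3 (104 motifs) and as many in its 663-nt exon 12 (18 motifs). In heart, Ash1l had 12 of its 22 sites in exon 3 (4558 nt) and Setd1b had 6 of 17 in exon 6.

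Kmt2e was the exception in build and, in mESC, in placement. It has a single internal exon over 400 nt. In mESC 2 of its 3 sites were in a short internal exon, exon 17 (309 nt). In heart 4 of 14 were in that exon, while 6 lay in exon 22 and 4 in the last exon. In the rest of the 10 genes 1 mESC site was in a short internal exon, and it belonged to Kmt2b. In heart 3 of the 11 Kmt2b sites were in short internal exons, a share near that of Kmt2e, and Setd1b and Ash1l had 1 such site each.

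**Figure D2:**
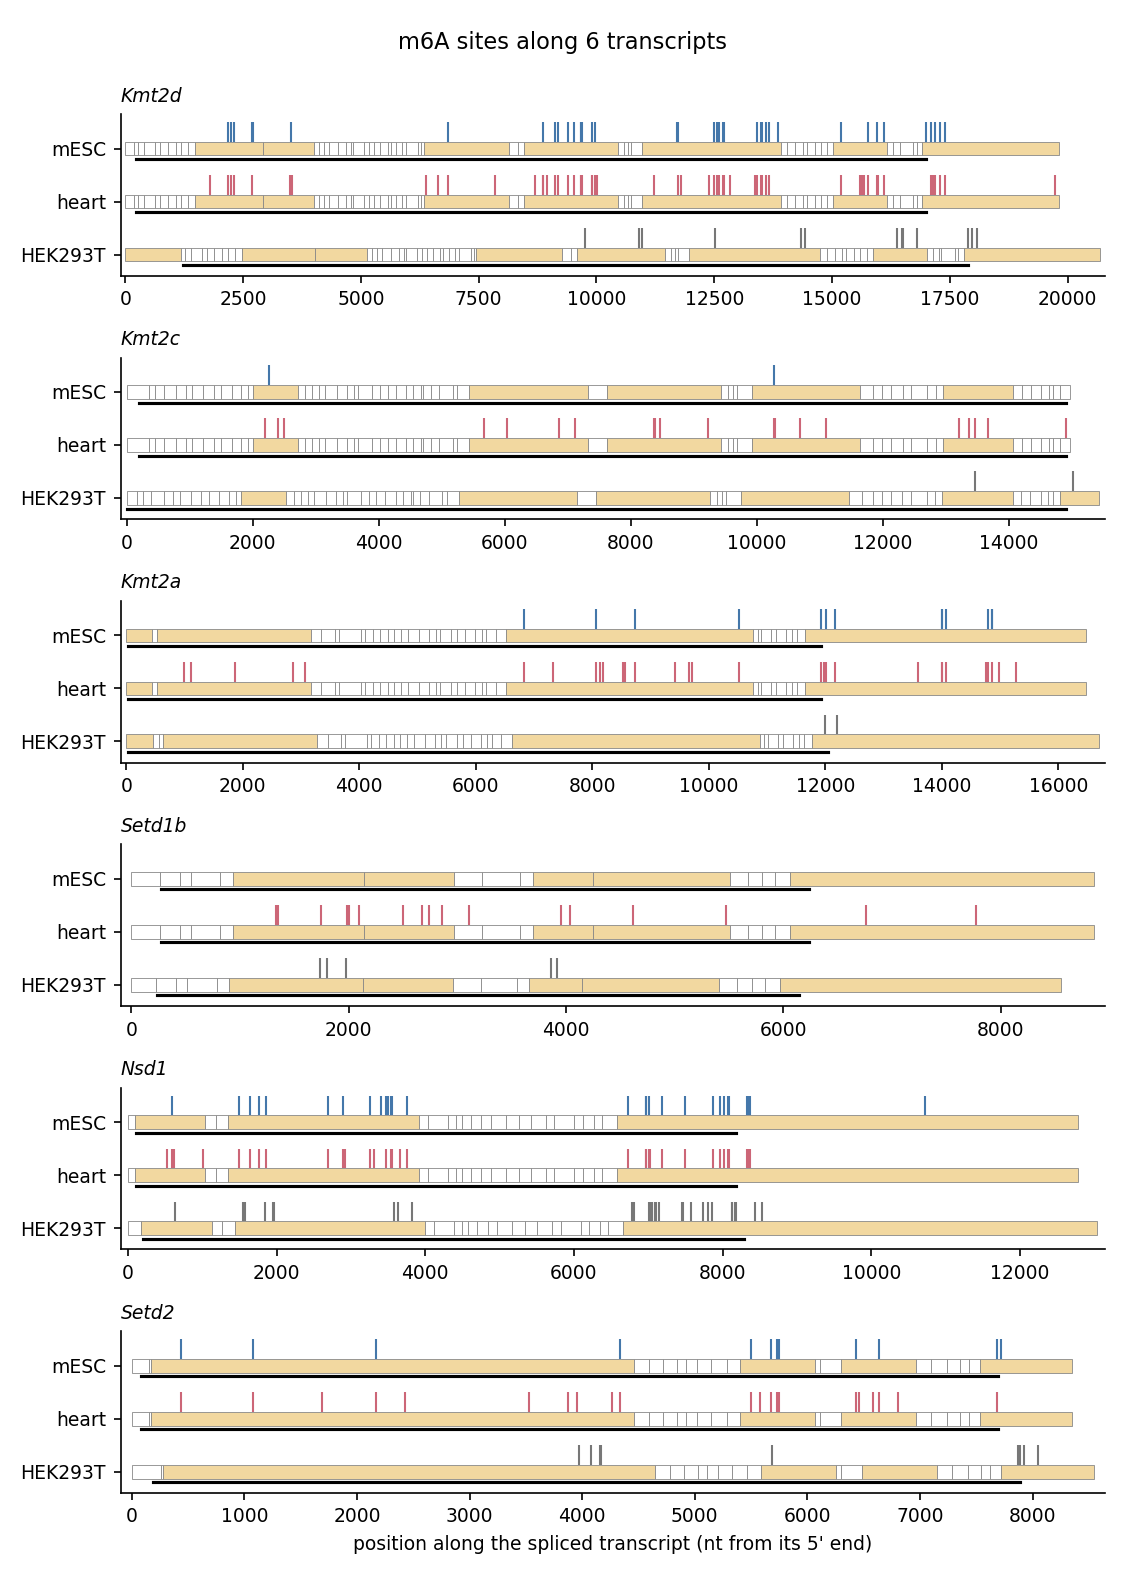
Sites along the spliced transcripts of Kmt2d, Kmt2c, Kmt2a, Setd1b, Nsd1 and Setd2, in nt from the 5′ end, with 1 row each for mESC, heart 1000 ng and HEK293T (human transcript). Boxes are exons, shaded where longer than 400 nt, the black line below spans the coding sequence, and ticks are sites. In Kmt2d, 34 of the 39 mESC ticks stand over shaded internal exons, and Kmt2c shows 2 mESC ticks against 20 in heart, where 1 further site lay outside the drawn transcript.

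Counted per motif, the long internal exons of the 10 genes were below those of all genes with a site in mESC and in HEK293T. That group leaves out genes without a site, whereas all of the 10 genes were counted, with or without one. In mESC 81 of 1123 DRACH motifs in their long internal exons were sites, or 7.21%, against 9.91% over all genes with a site, and the values were 15.4% against 13.6% in heart and 5.78% against 11.1% in HEK293T. In their short internal exons 3 of 768 motifs were sites, 0.391% against 0.879%. In last exons the shares were 5.94% and 6.15%. Long internal exons held 1123 of the 2386 motifs of the 10 genes.

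Pooled over exon kinds, distance to an exon junction separated motifs in the same way. Of 899 motifs within 100 nt of a junction, 9 were mESC sites (1.00%), and of 1487 motifs farther away 103 were (6.93%). Over all genes with a site the shares were 1.37% and 6.70%. In heart the near and far shares in the 10 genes were 1.67% and 14.1%, and in HEK293T 0.566% and 5.97%. Of the 899 near motifs 732 were in short internal exons, so the pooled shares mix distance with exon kind. Inside long internal exons alone the mESC shares were 2.88% near and 7.83% far. Last exons did not show this order, with 10.0% of 20 near and 5.76% of 451 far motifs. Over all genes with a site the last exon shares were 6.57% near and 6.12% far. In Kmt2d the mESC shares were 1.40% of 143 near motifs and 17.9% of 195 far motifs. In Nsd1 0 of 52 near motifs and 26 of 228 far motifs were sites.

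**Figure D3:**
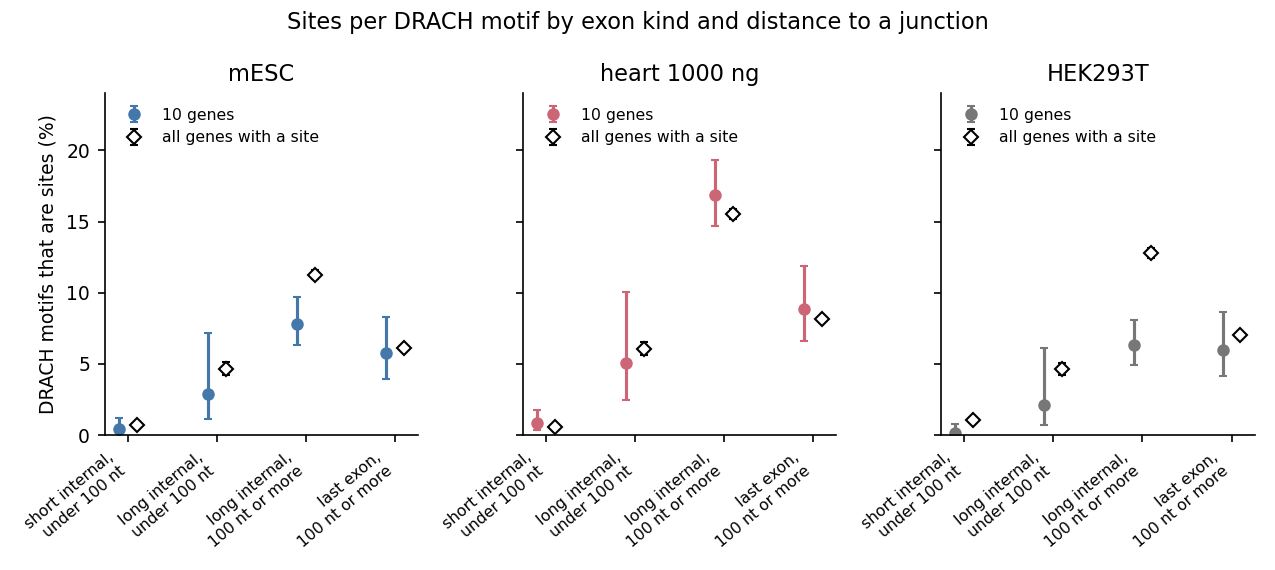
Percent of DRACH motifs that are sites, by kind of exon and distance to the nearest junction, for the 10 genes (filled circles) and for all genes with a site (open diamonds) in the 3 lists, with 95% Wilson intervals. Of the 4 classes drawn, motifs in short internal exons within 100 nt of a junction are lowest in every panel, at 0.410% for the 10 genes in mESC, and for the 10 genes motifs in long internal exons away from junctions are highest, at 7.83% in mESC.

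The motifs of the sites were those of the lists at large. DRACH held 91.8% of the mESC sites of the 10 genes, 96.2% of the heart sites and 94.7% of the HEK293T sites, against 92.9%, 92.9% and 89.3% of all sites. The sequence around a peak was also an input of m6Aboost. GGACT was the most frequent pentamer in mESC with 22 of 122 sites, or 18.0% against 22.9% of all mESC sites, followed by GAACT with 20 and GGACA with 18. Outside DRACH there were 10 mESC sites, of which 3 were GGACG and 3 GTACT. The median score was 0.715 in the 10 genes and 0.746 in other exonic mESC sites.

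The spacing of neighbouring sites differed among the genes. Neighbouring mESC sites lay a median of 107 nt apart in Kmt2d and 135 nt apart in Nsd1, along transcripts of 19823 and 12784 nt. In HEK293T the median gap in NSD1 was 63.0 nt, and 14 of its 29 gaps were under 50 nt. Kmt2a with a median of 407.5 nt and Setd2 with 632.0 nt had more widely scattered mESC sites. So did Kmt2e, at 598.5 nt over 3 sites, and the 2 mESC sites of Kmt2c lay 8013 nt apart. The spacing of the DRACH motifs themselves was not compared.

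Positions were widely shared between mESC and heart. Of the 122 mESC sites, 101 or 82.8% (75.1 to 88.5) were heart 1000 ng sites at the same base, against 59.8% of all exonic mESC sites. The 2 shares are not alike in their genes. All 10 genes had heart sites, whereas the wider set includes genes without any, such as Sox2 with 15 mESC sites. Kmt2d shared 35 of 39, Nsd1 26 of 29, Kmt2a 12 of 13 and Setd2 11 of 12. Kmt2b with 7 of 13 and Setd1a with 5 of 10 shared fewer, and both had fewer heart than mESC sites. In the other direction 43.2% of the heart sites of the 10 genes were mESC sites, against 33.9% of all. Both of these sets include genes without mESC sites, such as Setd1b among the 10 and Ttn among all. For Kmt2c and Ash1l only 1 of 21 and 1 of 22 heart sites were mESC sites, since these genes had few mESC sites to share.

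The lower heart inputs gave subsets of the same positions. At 300 ng the 10 genes kept 48 sites, 46 of them also found at 1000 ng, led by Kmt2d with 16 and Nsd1 with 11. At 100 ng and at 50 ng 2 sites each remained, all in Kmt2d. The full exonic lists held 8700, 1089 and 241 sites at these inputs. Each input was 1 library, so the loss with input has no replicate error.

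To compare species, a mouse site was called matched if a HEK293T site of the same gene had a 21-nt window with at most 4 mismatches. This held for 31 of 122 mESC sites, or 25.4% (18.5 to 33.8), and for none of them against sites of the other 9 human genes. Nsd1 had 13 of 29 sites matched, Setd1a 6 of 10, Kmt2d 6 of 39 and Kmt2b 5 of 13. Setd2 had 1 of 12 matched, and Kmt2a had 0 of 13.

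The mouse motif was often present in the human transcript where no HEK293T site was listed. For 64 of the 122 mESC sites the most similar window of the human transcript had a DRACH motif at its centre, and 29 of these 64 were HEK293T sites. In 18 cases the human base was an adenosine outside DRACH, in 10 it was another base and in 30 there was no single best window with 4 or fewer mismatches. Kmt2d had 19 sites with a human DRACH and 6 matched sites. Of the 30 heart sites of Kmt2a, 20 had a human DRACH, and 0 were HEK293T sites. RNA levels in HEK293T were not part of the count files, so a missing site cannot be told apart from a low transcript level.

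Turning to transcript levels in mESC, levels were compared between genes as CPM per kb of merged exon, where CPM is a gene's reads scaled to a common library size. In WT libraries Nsd1 was highest with 22.7 ± 2.75 (SD, n = 3), followed by Setd2 with 17.3 ± 1.78, Kmt2b with 13.5 ± 1.57, Kmt2d with 10.9 ± 0.674 and Kmt2a with 8.56 ± 0.471. Setd1a at 5.95 ± 0.490, Kmt2c at 5.66 ± 0.209, Kmt2e at 4.65 ± 0.0521 and Ash1l at 4.10 ± 0.396 CPM per kb came next. Setd1b was lowest at 0.832 ± 0.104. Of the neighbours in this order only Setd1a and Kmt2c had WT libraries that overlapped.

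The level of Setd1a is a lower limit, because 51.8% of its exon length is overlapped by Gm49388, to which no library had a count, and reads in shared exons are counted for neither gene. The 3 genes lowest in CPM per kb, Setd1b, Ash1l and Kmt2e, had 0, 1 and 3 mESC sites, and the 4 highest had 12 to 39. Over 10 genes this is a description only.

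**Figure D4:**
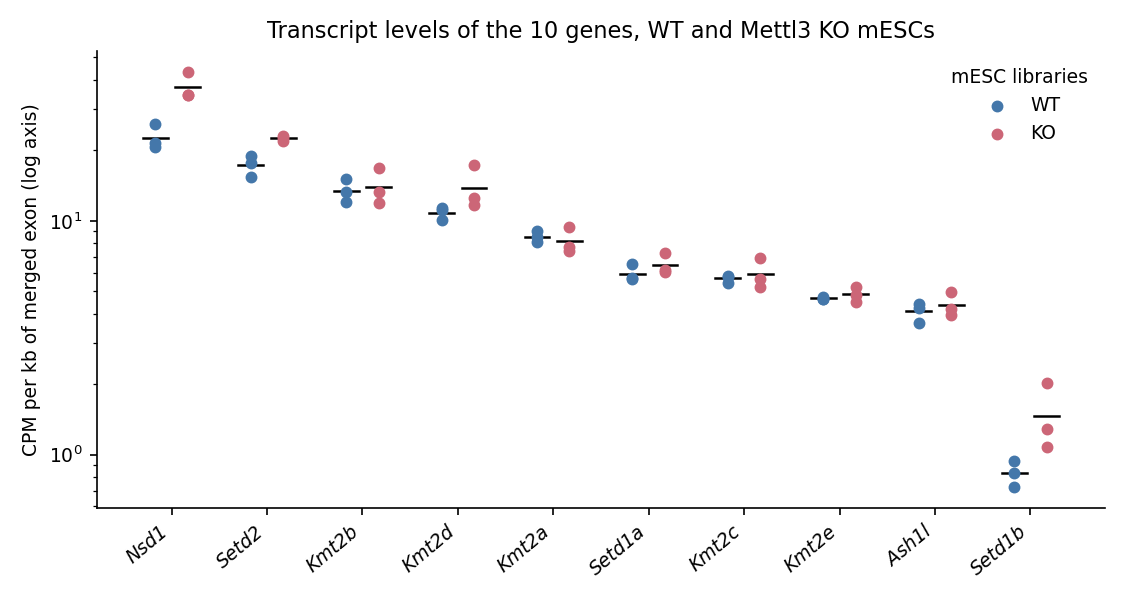
Transcript level in CPM per kb of merged exon on a log axis, for the 10 genes in 3 WT and 3 Mettl3 KO mESC libraries. Points are libraries, lines are means, and genes are ordered by the WT mean, from Nsd1 at 22.7 to Setd1b at 0.832. Every KO point lies above every WT point in Nsd1, Setd2, Setd1b and, only just, Kmt2d.

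The 6 RNA-seq libraries held 22746733 to 27254245 reads counted in genes. The targeted gene Mettl3 was still read in KO, with 462, 669 and 457 counts beside 560, 698 and 612 in WT, at a log2 fold change of −0.50 (SE 0.14, adjusted p 0.0134 by edgeR). The WT and KO libraries differed well beyond Mettl3. On chromosome 8 the median gene stood at −0.44 on the log2 scale, where the medians of other autosomes ran from −0.108 to 0.119. The 10 pluripotency markers summed to 5173 to 5632 CPM in WT and 3701 to 3784 in KO. Of them Tdgf1, Dppa5a, Tfcp2l1 and Utf1 were called lower, where 12.6% of all tested genes were. The other 6 were not called, and their log2 fold changes ran from −0.26 in Pou5f1 to 0.43 in Esrrb, with Nanog at −0.07 and Sox2 at 0.01. The 10 fibroblast markers summed to 12.6 to 20.2 CPM in WT and 18.1 to 21.6 in KO. In the site lists the pluripotency markers held 69 sites in mESC and 19 in heart at 1000 ng, the latter all in Klf4 and Esrrb. The 8 cardiomyocyte markers held 0 and 221, of which 195 were in Ttn and 23 in Ryr2. The 10 fibroblast markers held 0 and 55. The part of loss of Mettl3 and of such other differences in any change below was not tested. None of the 10 genes lies on chromosome 8. All 7 tested genes of chromosome Y were higher in KO, among them Uty, whose WT libraries had 0, 2 and 0 reads while those of KO had 776, 808 and 856.

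The RNA-seq answers how the 10 transcripts stood in cells without the m6A writer. By edgeR's quasi-likelihood test, at an adjusted p (Benjamini-Hochberg) of at most 0.01, Nsd1 rose and the other 9 were not called. Over all tested genes 29.7% were called, 17.1% higher and 12.6% lower, so 1 of 10 is not above that background. That fit leaves out the pairing of libraries by replicate number. With the number as a block 3 of the 10 were called, Nsd1, Setd1b and Setd2, against 43.5% of all. With library size as the only scaling 2937 genes were called higher and 1199 lower, in place of 2687 and 1982. The log2 fold change (KO over WT) was positive in 9 of 10 genes, and in all 10 under that scaling, with a median of 0.11 against −0.02 over all genes. WT and KO ranges in CPM did not overlap in 4 of the 10 genes, against 56.1% of all tested genes.

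Nsd1 stood at 375, 363 and 452 CPM in the WT libraries and at 603, 761 and 602 in KO. Every KO library was above every WT library. The rise was 1.65-fold (log2 0.72, SE 0.14, adjusted p 0.00206 by edgeR). Without WT replicate 1, Nsd1 was no longer called, with an adjusted p of 0.0150 by edgeR and a log2 fold change of 0.68. It was the gene of the 10 with both the highest level per kb and the second largest number of mESC sites.

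Setd1b stood at 8.78, 10.1 and 11.3 CPM in WT and at 15.5, 24.4 and 13.0 in KO. The groups did not overlap, although KO replicate 2 was far above the other KO libraries. Its log2 fold change of 0.81 (SE 0.23) was the largest of the 10 genes, with an adjusted p of 0.0145 by edgeR, short of the threshold. With the replicate number as a block the log2 fold change was 0.78 and the adjusted p 0.00115 by edgeR, past it. Without KO replicate 2 the log2 fold change was 0.51 (adjusted p 0.0524 by edgeR), and without KO replicate 3 Setd1b was called at 0.00720. Setd1b also had no mESC site and the lowest WT level of the 10 genes, at 0.832 CPM per kb. Its lack of sites cannot be told apart from its low level. A link of site number to log2 fold change was not tested.

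Setd2 stood at 190, 165 and 203 CPM in WT and at 236, 248 and 244 in KO. Here too the groups did not overlap, and the KO libraries lay close together. The log2 fold change was 0.38 (SE 0.11, adjusted p 0.0160 by edgeR), and it passed the threshold with the block at 0.00328 and without WT replicate 3 at 0.00575.

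Kmt2d, for its 39 sites, stood at 221, 227 and 201 CPM in WT and at 249, 347 and 233 in KO. The lowest KO library was only just above the highest WT library, and KO replicate 2 stood apart upwards. The log2 fold change was 0.35 (95% interval 0.018 to 0.69, adjusted p 0.0784 by edgeR), and with the block the adjusted p was 0.0131, in neither fit past the threshold. Without KO replicate 2 the log2 fold change was 0.16 (adjusted p 0.286 by edgeR). Among 1883 genes with at least 5 mESC sites, those closest to Kmt2d in centred log2 CPM over the 6 libraries were Fat1 and Ndst1, at root mean square differences of 0.0396 and 0.0615.

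The other 6 genes had overlapping groups. Their log2 fold changes ran from −0.06 in Kmt2a (SE 0.12) over 0.05 in Kmt2b, 0.06 in Kmt2c and in Kmt2e, and 0.10 in Ash1l to 0.13 in Setd1a, with adjusted p between 0.411 and 0.774 by edgeR. Kmt2a, with 13 mESC sites, stood at 142, 151 and 135 CPM in the WT libraries and, in KO, at 129, 157 and 124. The interval of its log2 fold change, −0.32 to 0.20, does not reach the change seen in Nsd1. KO replicate 2 was the highest KO library for each of the 10 genes. WT replicate 2 was the highest WT library for Kmt2a, Kmt2b, Kmt2c, Kmt2d, Setd1a and Ash1l, and WT replicate 3 for the rest.

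The partners of these enzymes were counted in lists chosen by function. Of 35 tested genes in the lists, 5 rose and 5 fell in KO, and with the block 6 rose and 12 fell. Read against the 29.7% of all tested genes called without the block and the 43.5% called with it, the former count is close to the background. The 4 COMPASS core subunits, which all H3K4 complexes share, had negative log2 fold changes, and in each the WT and KO ranges did not overlap, as in 56.1% of all tested genes. Ash2l fell from 521 ± 98.6 to 234 ± 19.2 CPM (log2 −1.16, adjusted p 0.000193 by edgeR), and Wdr5 fell from 274 to 202 CPM (log2 −0.44, adjusted p 0.00968). Rbbp5 at −0.38 and Dpy30 at −0.48 were not called, with adjusted p of 0.0227 and 0.0114 by edgeR, and were called with the block at 0.00297 and 0.00100. The Ash2l call held in all 13 alternative fits and that of Wdr5 in 5. Ash2l lies on chromosome 8, where the median gene was also lower.

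Subunits listed here under one kind of complex went different ways. In the SET1 complexes Bod1 rose (log2 0.73, adjusted p 0.00232 by edgeR) and Cxxc1, a reader of unmethylated CpG, fell (log2 −0.45, adjusted p 0.00962), calls that held in 10 and 4 of 13 alternatives. Wdr82 at 0.49 had an adjusted p of 0.0193 by edgeR and was called with the block at 0.000401, and Bod1l at 0.23 was not called. In the MLL3/4 complexes that hold Kmt2c and Kmt2d, Ncoa6 rose (log2 0.42, adjusted p 0.00564 by edgeR, called in 8 of 13 alternatives), and the other tested subunits were not called. None of the 3 tested MLL1/2 subunits was called, and Hcfc2 at −0.64 was called with the block. Men1 and Pagr1a are listed at 0 in all libraries and were not tested. Of the Pagr1a exon length 98.7% is overlapped by Pagr1b and Gm42742, and reads in shared exons are counted for no gene. Men1 has no such overlap in the gene annotation used here, but the study counted reads on another release of it. The overlap in that release was not examined, and whether Men1 RNA was absent was not tested.

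Enzymes acting on the same lysines were mixed as well. Of 5 H3K4 demethylases, Kdm5a fell (log2 −0.43, adjusted p 0.00762 by edgeR), a call that held in 5 of 13 alternatives. Kdm5d, a Y-linked enzyme of the same kind that was noticed after its values were seen, had 0 counts in every WT library and 774, 850 and 802 in KO. Of 7 other H3K36 methyltransferases and partners, Nsd2 fell (log2 −0.66, adjusted p 0.00111 by edgeR) and Smyd2 rose (log2 0.71, adjusted p 0.00111), and Nsd3, on chromosome 8, stood at −0.34. With the block Nsd3 and Morf4l1 were called lower too, at adjusted p of 0.00995 and 0.00174 by edgeR. The log2 fold change of Nsd1 thus was opposite in sign to those of its relatives Nsd2 and Nsd3. None of 5 H3K36 demethylases was called, and with the block Kdm2b and Kdm4c were called lower, at adjusted p of 0.00357 and 0.00880 by edgeR. Among 4 other H3K4 methyltransferases, Setd7 rose from 20.7 to 52.3 CPM (log2 1.34, adjusted p 0.000199 by edgeR) and the muscle gene Smyd1 from 0.804 to 6.12 CPM (log2 2.95, adjusted p 0.000217). The 8 cardiomyocyte markers summed to 41.2 to 93.1 CPM in WT and 180 to 220 CPM in KO, and most of this was Ttn, which rose from a mean of 53.9 to 192 CPM. Actc1 and Nppa were listed at 0. The part of these markers in the Smyd1 value was not tested.

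**Figure D5:**
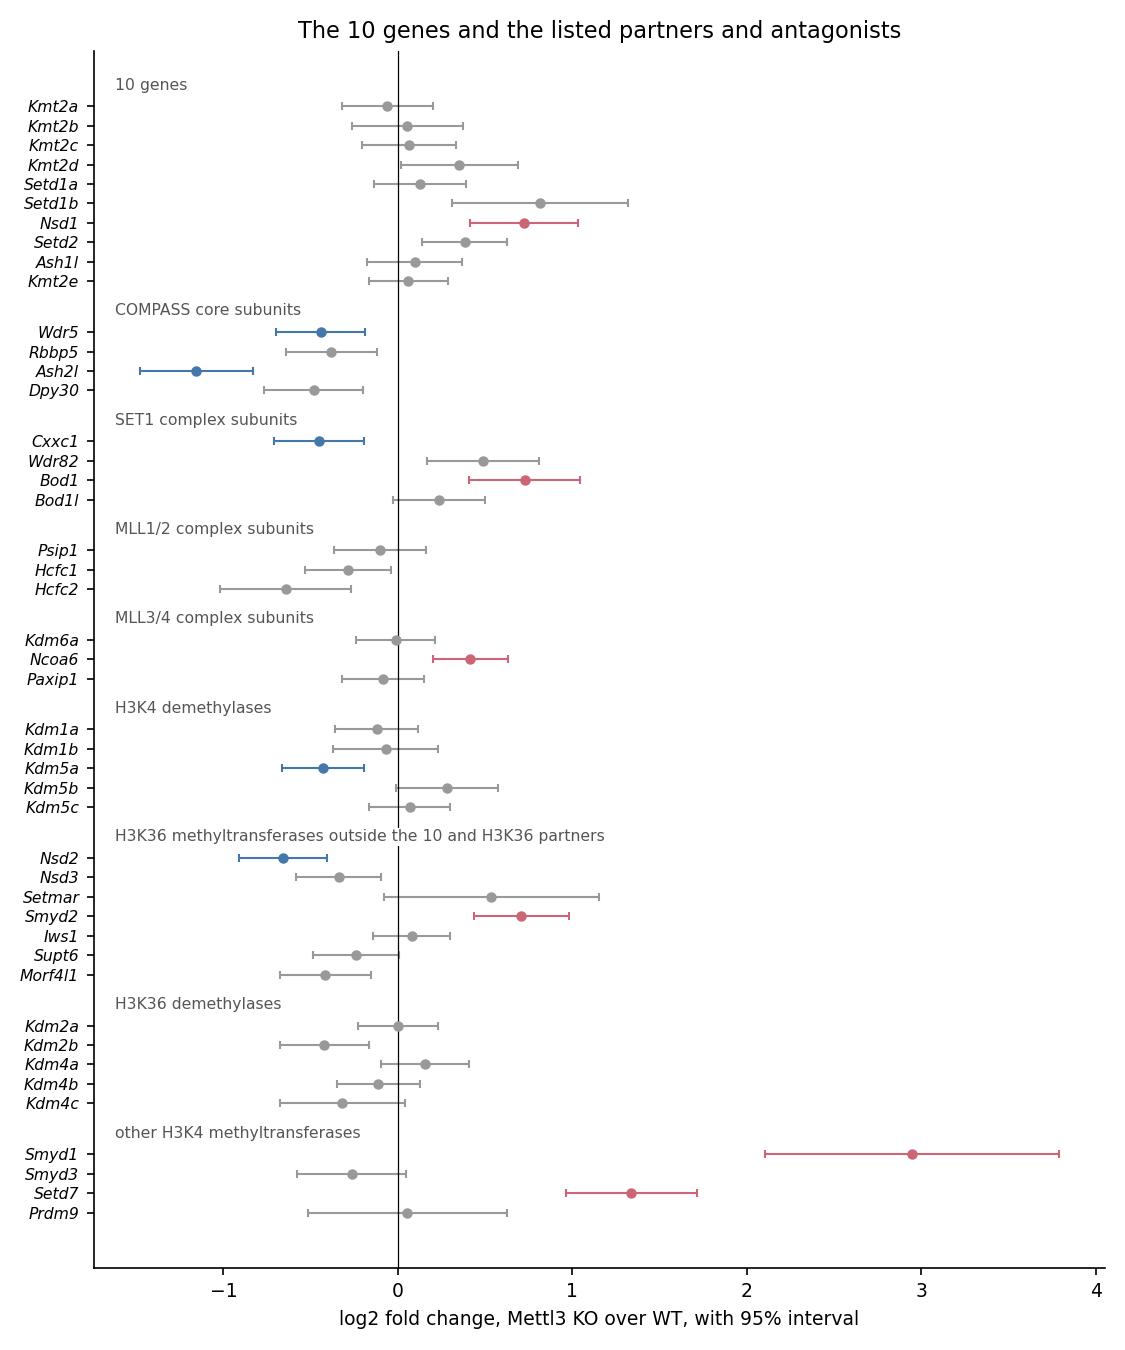
Log2 fold change of Mettl3 KO over WT mESC with 95% intervals from the edgeR fit, for the 10 genes and the tested partners and antagonists by list. Red points rose and blue points fell at an adjusted p of at most 0.01, and grey points were not called. Nsd1 at 0.72 is the only red point among the 10 genes, and the 4 COMPASS core subunits all lie left of 0.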

How the data were processed

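Gene counts were deposited per RNA-seq library: the authors aligned reads with STAR 2.6.1b to GRCm38.p6 and counted them by strand with HTSeq 0.12.4. Reads in no gene (36.7 to 42.7% of all counted lines) were left out. The deposited site lists carry a score per site, an m6Aboost prediction score in mESC and HEK293T and a value of unstated scale in heart, which was not used. The authors called PureCLIP peaks on reads aligned with STAR 2.7.3a after removing duplicates with UMI-tools 1.0.0, and kept mESC and HEK293T peaks found in several replicates. Sample titles and list names of the lower heart inputs differ in unit, and ng was used.

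Counts were fitted with edgeR 4.0.16 in R 4.3.3 (filterByExpr, TMM, quasi-likelihood test, genotype only, Benjamini-Hochberg over 15731 genes). The script was tested on simulated data. Same-numbered WT and KO libraries share only a number in the labels. Their deviations from group means correlated at 0.122, 0.464 and 0.303, and those of differently numbered libraries at −0.342 to 0.110. The number was therefore taken to pair them, although 0.122 for replicate 1 was close to 0.110 for WT replicate 3 with KO replicate 1. Deviations from a group mean cancel out across its libraries, so these correlations are not independent of each other. The main fit used genotype only and so leaves this pairing out, and a fit with the number as a block is given as an alternative. DESeq2 1.42.0, other filters and scalings, and each replicate left out were further alternatives. CPM used TMM-scaled library sizes.

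Sites were placed on GENCODE M21 and 44 exons, per gene on the transcript with the longest coding part. Matches between human and mouse windows used the same genes. The search for the human equivalent of each site, and the place of Kmt2d by high-scoring sites, were added after seeing the data. Differences between lists have no replicates and were given with Wilson intervals at 95%, for counting error only. A count of 0 was given the limit of 3 counts.

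The members and gene lists were chosen with earlier results of these data known. Named were the 10 members, up to 3 called genes with the largest change per list, the 4 COMPASS core subunits, the 5 genes with most sites per list, the 3 genes most like Kmt2d (1 is not reported here), and Mettl3. One of the 5 HEK293T genes was left out of the text, and partners given without a call were added after their values were seen.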

Additional observations from a re-analysis of the deposited data

How the results depend on the processing

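Of the 10 genes, 1 was called in the reported fit. The number was 3 with DESeq2, 3 with no filter on low counts, 3 at an adjusted p of 0.05, 3 with the replicate block, and 2 with library size as the only scaling. Leaving out 1 replicate gave 0 to 2. Nsd1 was called in 12 of 13 alternatives (log2 0.61 to 0.84, adjusted p 7.33e-08 to 0.0150 over edgeR and DESeq2), Setd2 in 6 and Setd1b in 5, and the other 7 genes in none. Of the partner lists 10 genes were called, with 17 at an adjusted p of 0.05, 18 with the replicate block and 5 to 10 with 1 replicate left out. The block changed no other call of the 10 genes than those of Setd1b and Setd2. Over all genes 4669 were called, and 6837 with the block and 7336 at 0.05. Small log2 fold changes turned sign: Kmt2a was 0.0425 with library size only, and with 1 replicate left out Kmt2a ran from −0.168 to 0.0124 (above 0 without KO replicate 3), Kmt2b from −0.0879 to 0.167 (below 0 without WT replicate 3, at −0.0209, and without KO replicate 2) and Kmt2c from −0.0555 to 0.160 (below 0 without KO replicate 2). Library size only moved the median of all genes to 0.08 and of the 10 genes to 0.21, with 2937 genes higher and 1199 lower. Each cause was not tested.

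For sites, 51 of the 122 mESC sites of the 10 genes reached the median score, and 112 were left without those in exons of several genes. The first place of Kmt2d became 648 per kb and 11 by high-scoring sites. The long internal exon share fell to 60.7% with a limit of 1000 nt. RRACH held 83.6% of mESC, 87.2% of heart and 81.9% of HEK293T sites. Within 50 nt of a junction 0.478% of motifs were mESC sites. Matched human sites were 15.6% at 2 mismatches and 34.4% with an 11-nt window. The other site alternatives moved values by less than their intervals. Lists without read depth limit how far an absent site can be read.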
